A study of Mus musculus with 15 samples.

Results

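Mouse bone marrow-derived macrophages (BMDMs) that had been treated for 24 h with disulfide HMGB1 (dsHMGB1) were compared with BMDMs treated for the same time with lipopolysaccharide (LPS), 2 ligands of TLR4. There were 3 libraries of each treatment, 6 of the 15 RNA-seq libraries of the series, and 3 vehicle (PBS) libraries gave the level from which each response was measured. The comparison was made on protein-coding genes, of which 13025 of the 16919 genes with enough counts to be tested were of this type. All BMDMs came from wild-type female C57BL/6NTac mice aged 8 to 10 weeks. The BMDMs of 5 mice were pooled before they were seeded, so the 3 libraries of a group are cultures of a single pool. The p-values below rest on how far these cultures and libraries differed, with no term for differences between mice. The dsHMGB1 was given at 5 µg/mL and the *E. coli* K12 LPS at 1 µg/mL. Each ligand was given at 1 dose and measured at 1 time, so the ligand and its dose cannot be told apart. The fully reduced form of the protein (frHMGB1, 5 µg/mL, 3 libraries) is used below where it bears on a result.

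HMGB1 is a nuclear protein that binds DNA and bends it. It becomes a signal once it has left its cell, and oxidation of its cysteines determines which receptors it can then engage. The disulfide form binds MD-2, the protein that sits on TLR4 and also holds LPS. LPS is passed by CD14 to the complex of TLR4 and MD-2, which signals at the cell surface through the adaptors TIRAP and MyD88 to NF-κB and AP-1, and from the endosome through TRAM and TRIF to IRF3 and type I interferon. In macrophages the first branch is known for TNF, IL-1β, IL-6 and chemokines, and the second for IFN-β and the antiviral genes that IFN-β switches on.

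The dsHMGB1 libraries held 65905281 to 79899533 counts and the LPS libraries 49653652 to 56128646. All 10 macrophage markers passed the filter on low counts, with a summed level of 20600 to 22300 CPM (counts scaled to the same library total) after dsHMGB1, 17000 to 17800 after LPS and 22600 to 26800 after PBS. Of 10 neutrophil markers 4 were at 0 in all 6 libraries (*Ly6g*, *S100a9*, *Ngp* and *Mpo*) and 3 passed the filter, with a summed level of 16.4 to 18.6 CPM after dsHMGB1 and 13.4 to 15.1 after LPS and none called. The 8 fibroblast markers summed to 216 to 268 and 232 to 241 CPM, and *Col3a1*, a collagen chain, was called lower after dsHMGB1 (−0.66 ± 0.20 on the log2 scale, adjusted p = 0.0359, lost when any library of either ligand other than dsHMGB1 replicate 3 was left out). The 10 lymphocyte markers, 5 of them at 0 and the CD3 chains among these, summed to 0.513 to 0.683 and 0.222 to 0.428 CPM, the 5 mast cell markers to 2.66 to 3.49 and 3.22 to 4.04 CPM, and the 4 erythroid markers were at 0. The 5 dendritic cell markers summed to 3.35 to 4.19 CPM after dsHMGB1 and 7.81 to 8.62 after LPS. In these bulk samples fewer cells of a type and less RNA per cell cannot be told apart. Processed pseudogenes, which are intronless copies of other genes, took 0.712 to 0.833% of the counts after dsHMGB1 and 0.481 to 0.487% after LPS. Of 2028 such pseudogenes tested, 921 were higher after dsHMGB1 and 60 lower, with a median log2 fold change of 1.52 against −0.05 for protein-coding genes, and they were set aside for that reason. PBS replicate 3 stood apart, with a correlation of log2 CPM of 0.937 to 0.942 with the other PBS libraries, where every other pair within a group reached 0.99 to 0.994. The chi-square per degree of freedom between libraries, which grows as they differ beyond counting error, was 692 and 763 for its pairs. That value was 22.9 to 86.6 between dsHMGB1 libraries, 6 to 10.1 between LPS libraries and 4.31 to 8.47 for the remaining pairs. PBS replicate 3 takes no part in the difference between dsHMGB1 and LPS but adds to the estimate of the spread, so counts are also given without it where they moved.

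The promoters of genes from 3 parts of the response are shown first. Called members of the NF-κB and interferon groups were lower after dsHMGB1 than after LPS, and those of the NRF2 group were mainly higher. Each run is the 250 bases before the RefSeq start site (GRCm38.p6), written 5′ to 3′ on the strand of the gene, with capitals on the letters that matched, on either strand, the motif named here for that gene. Matches to the other motifs in the same runs are left in lower case. *Il6* (chr5:30012864-30013113, + strand) and *Nfkbia* (chr12:55492648-55492897, − strand), a cytokine and the inhibitor of NF-κB, held a κB motif whose first base lay 44 and 29 bases before the start. *Rsad2* (chr12:26456453-26456702, − strand) and *Isg15* (chr4:156200819-156201068, − strand), both antiviral genes, held the core of the interferon-stimulated response element (ISRE, GAAA followed by GAAA after any 2 bases), once at 120 bases in *Rsad2* and in 3 overlapping matches between 78 and 66 bases in *Isg15*. *Gclm* (chr3:122245307-122245556, + strand) and *Txnrd1* (chr10:82858956-82859205, + strand, 1 of 3 promoters of this gene), which serve glutathione synthesis and thioredoxin reduction, held the core of the antioxidant response element (ARE, TGACNNNGC) at 134 and 92 bases. *Srxn1* (chr2:152105274-152105523, + strand), the enzyme that restores overoxidised peroxiredoxins, held 2 AP-1 motifs (TGANTCA) at 102 and 45 bases. It held no match in this window to the ARE core as written here. The AP-1 match at 45 bases reads on as TGAGTCAGC, which differs from that core only by G in place of C, and the search did not count it.
Il6: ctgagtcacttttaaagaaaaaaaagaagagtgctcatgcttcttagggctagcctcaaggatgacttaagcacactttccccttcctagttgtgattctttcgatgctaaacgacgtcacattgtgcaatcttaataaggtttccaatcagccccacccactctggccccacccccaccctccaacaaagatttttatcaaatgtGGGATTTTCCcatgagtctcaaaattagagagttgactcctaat
Nfkbia: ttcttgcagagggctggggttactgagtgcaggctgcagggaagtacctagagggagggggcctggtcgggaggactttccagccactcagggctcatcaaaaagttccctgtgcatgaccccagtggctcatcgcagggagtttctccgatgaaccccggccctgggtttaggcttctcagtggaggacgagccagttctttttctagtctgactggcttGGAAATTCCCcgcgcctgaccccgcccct
Rsad2: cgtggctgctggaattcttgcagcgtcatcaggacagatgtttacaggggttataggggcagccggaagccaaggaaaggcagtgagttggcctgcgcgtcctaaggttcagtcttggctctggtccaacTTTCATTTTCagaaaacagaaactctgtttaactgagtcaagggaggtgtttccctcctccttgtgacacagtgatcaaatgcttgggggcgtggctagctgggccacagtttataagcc
Isg15: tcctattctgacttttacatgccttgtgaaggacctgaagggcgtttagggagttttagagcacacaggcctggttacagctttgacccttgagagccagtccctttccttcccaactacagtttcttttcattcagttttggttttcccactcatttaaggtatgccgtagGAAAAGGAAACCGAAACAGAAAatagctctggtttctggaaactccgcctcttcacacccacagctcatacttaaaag
Gclm: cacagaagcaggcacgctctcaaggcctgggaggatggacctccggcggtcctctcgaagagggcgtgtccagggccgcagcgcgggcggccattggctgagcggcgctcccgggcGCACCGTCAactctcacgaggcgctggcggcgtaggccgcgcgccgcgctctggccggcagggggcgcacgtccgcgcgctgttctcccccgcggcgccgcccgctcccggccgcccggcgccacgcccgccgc
Txnrd1: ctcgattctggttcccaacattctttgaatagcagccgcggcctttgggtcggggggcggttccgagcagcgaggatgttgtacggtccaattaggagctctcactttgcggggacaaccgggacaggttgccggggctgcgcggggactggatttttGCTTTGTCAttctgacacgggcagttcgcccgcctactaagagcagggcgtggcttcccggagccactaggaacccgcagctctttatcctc
Srxn1: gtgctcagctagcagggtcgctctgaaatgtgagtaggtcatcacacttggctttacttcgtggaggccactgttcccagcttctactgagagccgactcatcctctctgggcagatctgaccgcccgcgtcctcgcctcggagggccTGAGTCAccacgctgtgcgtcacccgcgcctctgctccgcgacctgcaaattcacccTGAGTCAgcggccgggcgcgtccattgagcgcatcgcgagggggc

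Over all 32851 RefSeq promoters searched in the same way, 7.25% held a κB motif, 2.98% the ISRE core, 10.2% the ARE core and 6.75% the AP-1 motif. The ISRE core was found in 10 of 25 promoters of the interferon-stimulated genes and in 10 of 17 promoters of genes known from interferon-γ responses. The ARE core was found in 9 of 29 promoters of NRF2 and glutathione genes, but also in 3 of 9 of the HMGB1 receptor group, 3 of 11 of the alternative activation genes and 4 of 15 of the MHC class I genes. A κB motif was found in 4 of 16 promoters of the cytokines, 5 of 12 of the chemokines and 6 of 19 of the feedback inhibitors, and in 7 of 12 of the NF-κB and AP-1 subunits and 5 of 15 of the MHC class I genes. These matches are letters found in a window, and whether a factor bound there was not measured.

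A gene was called different between dsHMGB1 and LPS where its adjusted p in edgeR's quasi-likelihood test was under 0.05. Fold changes are log2 values with their standard error from DESeq2, dsHMGB1 over LPS unless stated, and levels are normalized counts, which do not allow levels of different genes to be compared since they are not per length. Of the 13025 protein-coding genes, 1601 (12.3%) were higher after dsHMGB1 than after LPS and 1645 (12.6%) were lower, and of these 482 and 618 differed by more than 2-fold. Measured against PBS, dsHMGB1 raised 3331 genes (25.6%) and lowered 3556 (27.3%), and LPS raised 3987 (30.6%) and lowered 4422 (34.0%). Both contrasts with PBS use the same PBS libraries and are therefore given side by side. Without PBS replicate 3, the called differences between the ligands were 2961 higher and 3705 lower.

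The 3 calls of each gene sorted most of these differences into a response that both ligands gave and that was smaller after dsHMGB1. The largest such class held 1140 genes that rose with both ligands and rose less with dsHMGB1, with a median log2 change over PBS of 1.53 after dsHMGB1 and 2.49 after LPS. A further 1007 genes fell with both and fell less with dsHMGB1 (median −1.08 and −1.86). The shared changes that were larger after dsHMGB1 were fewer, with 85 rises (median 1.64 and 0.94) and 30 falls (median −1.73 and −0.91). Another 1864 rises and 2191 falls were called with both ligands without a called difference between them.

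Of the genes called lower after dsHMGB1 than after LPS, 331 rose with LPS with no call for dsHMGB1, and 362 of those called higher fell with LPS alone. A change called for dsHMGB1 alone and different from LPS was found for 76 rises and 81 falls. The ligands moved 47 genes to opposite sides of PBS, 30 of them higher and 17 lower after dsHMGB1. Genes named by rule from these classes had to show no overlap between the dsHMGB1 and LPS libraries. For them that separation, where given below, is no further evidence. In the plot of both changes over PBS, the 2 large shared classes lie between the horizontal axis and the line of equal change, and the genes with opposite calls lie in the other quadrants. Without PBS replicate 3 the opposite class held 137 genes, the rises and falls in dsHMGB1 alone 141 and 205, and the smaller shared rises and falls 2524 and 1942.

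**Figure D1:**
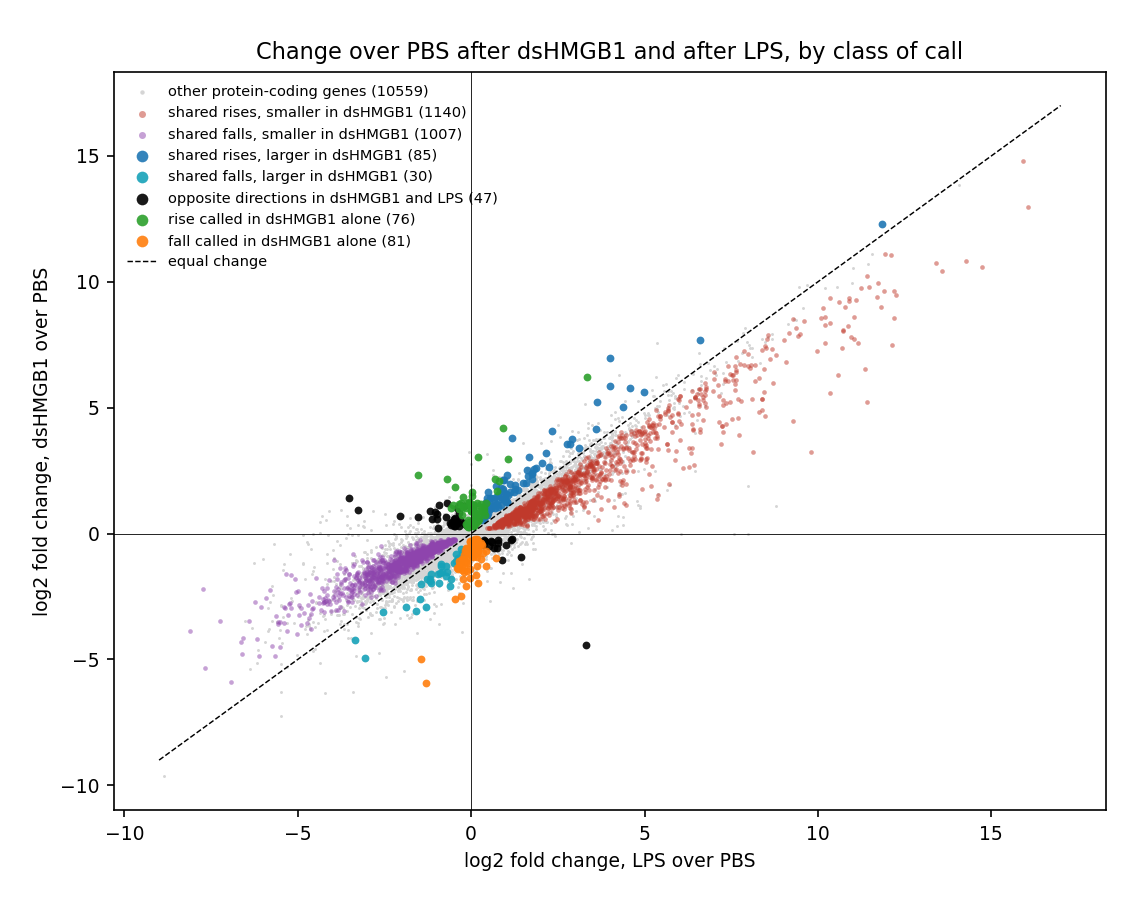
Log2 fold change over PBS after LPS (horizontal axis) and after dsHMGB1 (vertical axis) for protein-coding genes, each point 1 gene, coloured by class, with the dashed line marking equal change. The 1140 smaller shared rises and 1007 smaller shared falls lie nearer to 0 on the dsHMGB1 axis than on the LPS axis, and the 47 genes with opposite calls lie on different sides of 0 on the axes.

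Some named groups of genes held called differences mainly in one direction. All 20 cytokines, 15 of 18 feedback inhibitors of TLR4 and 19 of 27 interferon-stimulated genes were lower after dsHMGB1 than after LPS, with no member higher. In the opposite direction, 13 of 25 NRF2 and glutathione genes and 10 of 25 sterol synthesis genes were higher after dsHMGB1, with 1 and 0 lower. Other groups were divided, such as the genes of lipid uptake, storage and efflux with 9 of 33 higher and 7 lower. Over all protein-coding genes the shares were 12.3% higher and 12.6% lower. The plot of group members shows the medians of these groups on both sides of the median of all genes, which was −0.05.

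**Figure D2:**
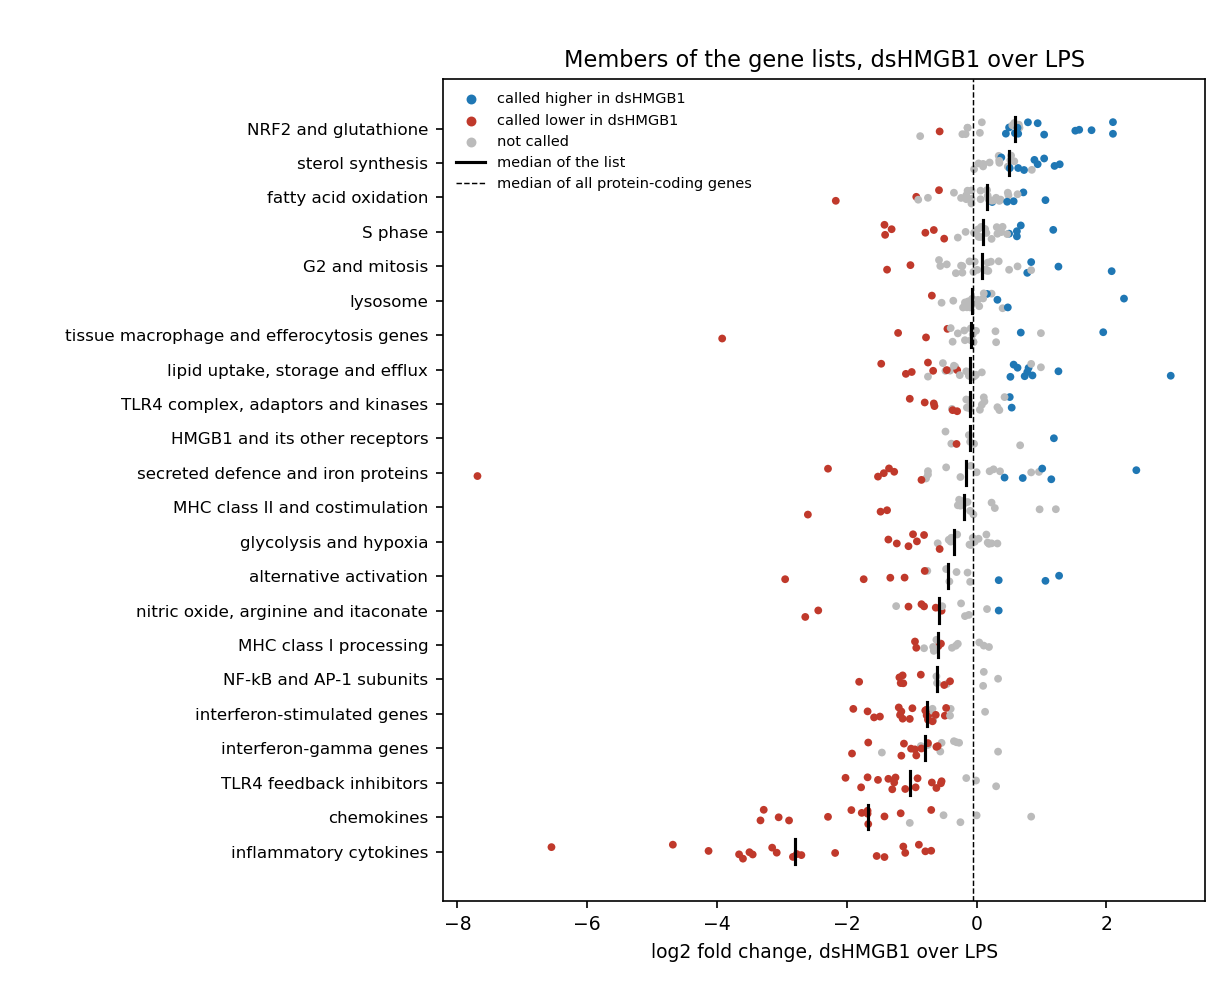
Log2 fold change, dsHMGB1 over LPS, of the members of the gene groups described here, each point 1 gene, blue where called higher after dsHMGB1, red where called lower and grey where not called, with a bar at the group's median and a dashed line at the median of all protein-coding genes. The cytokines have a median of −2.80 and the NRF2 and glutathione genes a median of 0.59.

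The 20 inflammatory cytokines were called as rises with both ligands, for *Il33* after dsHMGB1 on 5 reads, and reached much lower levels with dsHMGB1, with a median change over PBS of 6.43 on the log2 scale after dsHMGB1 and 9.63 after LPS. With the genes whose PBS libraries were all at 0 set to their lower bound these medians were 4.88 and 8.44. *Tnf* (ENSMUSG00000024401, chr17:35199381-35202007, − strand), the cytokine that opens the macrophage response, was at 658, 622 and 839 normalized counts in the PBS libraries, 182915, 164574 and 168672 after dsHMGB1 and 478825, 514809 and 512385 after LPS. The 3 groups did not overlap, and dsHMGB1 brought *Tnf* to a level between those of PBS and LPS. The log2 fold change over LPS was −1.54 ± 0.10 (edgeR adjusted p = 1.83e-07), where the changes over PBS were 7.94 and 9.48.

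*Il1b*, whose protein is cut and released once an inflammasome is active, was at 58184, 43704 and 47582 after dsHMGB1 and 444854, 429496 and 453235 after LPS, from 30.5 to 42.3 in PBS. Every dsHMGB1 library was far above PBS and far below LPS (log2 fold change −3.15 ± 0.14, adjusted p = 3.68e-08). *Il6*, which drives the acute phase response, was at 6012, 4274 and 3721 after dsHMGB1 and 53215, 50323 and 49125 after LPS. Its PBS libraries summed to 10 reads, so that its rise over PBS, 1840-fold after dsHMGB1, had a counting interval of 1000 to 3850-fold. The difference from LPS was −3.45 ± 0.21 (adjusted p = 8.42e-06).

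The widest gap among the cytokines was that of *Il33*, an alarmin of the IL-1 family with few reads. It had 5 reads over the 3 dsHMGB1 libraries and 269 over the LPS libraries, a ratio of 93.2 (95% counting interval 39.4 to 289, which covers counting error only). Its rise over PBS, where it was at 0, was called for LPS alone with the replicate block, with only the compared groups in the fit, and without PBS replicate 1 or 2 or dsHMGB1 replicate 2. *Csf2*, the growth factor GM-CSF, was at 0 in PBS, and its level was at least 33.6-fold higher after dsHMGB1 and at least 861-fold higher after LPS, taking 3 counts over the PBS group as the floor. *Il12a* and *Il23a*, the p35 and p19 chains of IL-12 and IL-23, were also at 0 in PBS and differed by −3.08 ± 0.08 and −4.13 ± 0.21 between the ligands. *Il10*, the cytokine that limits inflammation, was at 217, 138 and 169 after dsHMGB1 and 2530, 2122 and 1945 after LPS, from 16.4 to 42.7 in PBS. The anti-inflammatory cytokine therefore stood in the same order as the inflammatory ones (−3.66 ± 0.28, adjusted p = 1.95e-06). The smallest differences of the group were those of *Il18* (−0.70 ± 0.18, adjusted p = 0.00932) and *Csf1* (−0.79 ± 0.12). For *Il12b*, the shared chain p40, the difference was −1.13 ± 0.09 (adjusted p = 0.0188), and its call was lost when any library of either ligand other than LPS replicate 1 was left out (adjusted p 0.0521 to 0.0663).

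Of 18 chemokines tested, 13 were lower after dsHMGB1 and none was higher, with a median of −1.68. *Ccl2*, which draws monocytes, was at 5972, 4550 and 4565 after dsHMGB1 and 42336, 41239 and 41234 after LPS, against 102 to 158 in PBS. The groups were far apart, and the difference was −3.05 ± 0.19 (adjusted p = 1.46e-07). *Ccl17* and *Ccl22*, ligands of CCR4, differed by −3.33 ± 0.29 and −3.28 ± 0.09, and the dendritic cell markers *Zbtb46* and *Xcr1*, 2 of the 5 fixed for that cell type, were lower after dsHMGB1 as well, the call of *Zbtb46* (adjusted p = 0.0218) being lost without dsHMGB1 replicate 1 or 3 or LPS replicate 2. Their part in this result was not tested. The neutrophil chemokines *Cxcl1* (−2.29 ± 0.14) and *Cxcl2* (−1.77 ± 0.10) were lower too.

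The chemokine *Cxcl3* had no called difference. It was at 2539, 2349 and 2061 after dsHMGB1 and 2393, 2297 and 2281 after LPS, from 1.29 to 12.9 in PBS. These values overlapped, with a log2 fold change of −0.00 ± 0.15 (adjusted p = 0.947). *Ccl9* (−0.25 ± 0.13, adjusted p = 0.217) and *Cxcl10* (−1.03 ± 0.36, adjusted p = 0.0537), the ligand of CXCR3, had no called difference. *Cxcl10* was called in 8 of the alternative fits and *Ccl9* without PBS replicate 3 (adjusted p = 0.0076). Outside the chemokines, the formyl peptide receptor *Fpr1* rose from 4 reads in PBS to means of 948 ± 34 after dsHMGB1 and 824 ± 109 after LPS (SD, n = 3), with a difference of 0.20 ± 0.14 that was not called (adjusted p = 0.525). *Ptges*, the synthase of prostaglandin E2, stood at 2419.2 ± 249 and 2413.4 ± 205 (SD, n = 3), whereas *Ptgs2*, the cyclooxygenase upstream of it, was at 54427, 69715 and 54908 after dsHMGB1 and 274141, 303285 and 295431 after LPS (−2.29 ± 0.25, adjusted p = 5.1e-05).

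Genes of nitric oxide and arginine metabolism followed the cytokines, with 7 of 14 lower after dsHMGB1 and 1 higher (median −0.58). *Nos2*, the inducible nitric oxide synthase, was at 14937, 14512 and 14835 after dsHMGB1 and 86254, 92284 and 97727 after LPS, from 5.68 to 11.7 in PBS. The dsHMGB1 libraries lay close together and well below the LPS libraries (−2.64 ± 0.08, adjusted p = 7.26e-05). *Slc7a2*, the arginine transporter that feeds it, differed by −2.44 ± 0.21, and *Ass1*, which rebuilds arginine from citrulline, by −0.85 ± 0.08. *Acod1*, which makes itaconate, was at a mean of 287980 ± 6930 after dsHMGB1 and 503520 ± 15900 after LPS (SD, n = 3). Its difference of −0.81 ± 0.22 (adjusted p = 0.021) lost its call when any library of either ligand other than LPS replicate 1 was left out (adjusted p 0.0503 to 0.0642).

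**Figure D3:**
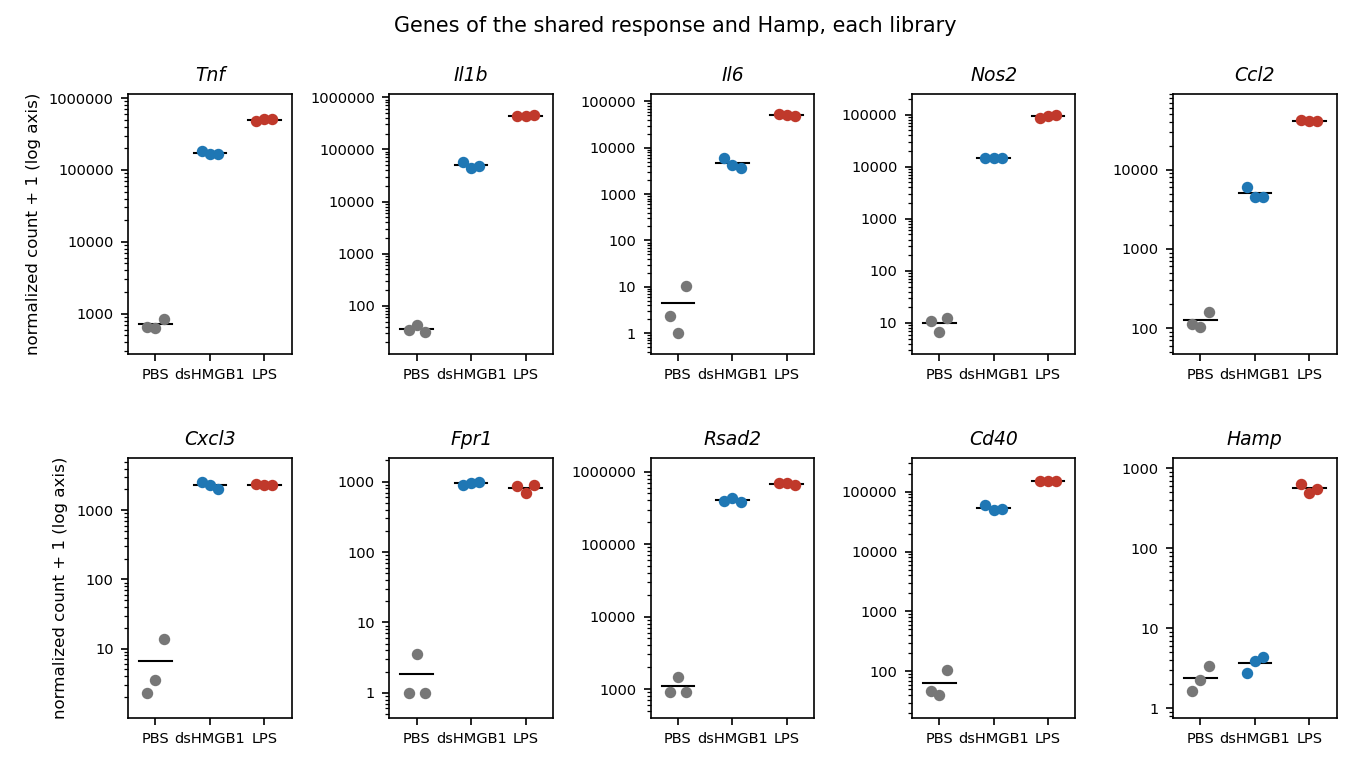
Normalized counts plus 1, on a log axis, of 10 genes in each PBS, dsHMGB1 and LPS library, with a line at the group's mean. *Tnf*, *Il1b*, *Il6*, *Nos2*, *Ccl2*, *Rsad2* and *Cd40* stand lower after dsHMGB1 than after LPS, *Cxcl3* and *Fpr1* stand at like levels, and *Hamp* stands above its PBS level after LPS alone.

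The feedback inhibitors of TLR4 signalling, which cells induce to end the response, were lower after dsHMGB1 in 15 of 18 cases and higher in none (median −1.02, with medians over PBS of 2.28 and 3.58). *Socs3*, which blocks signalling from gp130 receptors, was at 28456, 23807 and 25311 after dsHMGB1 and 100381, 104147 and 109949 after LPS. No library of one group reached the other (−2.02 ± 0.19, adjusted p = 1.27e-05). *Nfkbia*, the inhibitor IκBα, was at 48430, 40611 and 42194 after dsHMGB1 and 100968, 103458 and 107748 after LPS (−1.25 ± 0.15, adjusted p = 1.16e-05), and *Tnfaip3*, the deubiquitinase A20, differed by −1.52 ± 0.23. *Dusp1*, a phosphatase of p38 and JNK, was at 1363, 1277 and 1336 after dsHMGB1, within the PBS range of 802 to 1446, and at 4024, 4282 and 4420 after LPS. It was called for LPS alone (change over PBS 0.18 and 1.86, difference −1.68 ± 0.19, adjusted p = 3.92e-05). *Irak3*, the kinase-dead IRAK-M (0.30 ± 0.19, adjusted p = 0.211), and *Tollip* (−0.16 ± 0.05, adjusted p = 0.368) were not called, but were without PBS replicate 3 (adjusted p = 0.00154 and 0.0485).

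Among the subunits of NF-κB and AP-1, 8 of 14 were lower after dsHMGB1 and none was higher. The subunits *Nfkb2* (−1.14 ± 0.07, adjusted p = 6e-07), *Rela* (−0.50 ± 0.06) and *Relb* (−0.41 ± 0.15, a call lost when any library of either ligand other than dsHMGB1 replicate 1 was left out) were among them, and *Nfkb1* (−0.61 ± 0.23, adjusted p = 0.0878) and *Rel* (−0.62 ± 0.26, adjusted p = 0.134) were not called. Both were called lower without PBS replicate 3 (adjusted p = 1.25e-07 and 4.25e-05) and with only the compared groups in the fit (7.26e-05 and 0.00212). *Junb* differed by −1.17 ± 0.21. *Fosl2* fell with dsHMGB1 (−0.78 over PBS), had no call for LPS (0.35), and differed by −1.13 ± 0.21 between them.

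Within the receptor complex, MD-2 had a called difference, and TLR4 and CD14 had none. *Tlr4* had a mean of 4059.7 ± 887 after dsHMGB1 and 3254.3 ± 142 after LPS (SD, n = 3), a difference of 0.32 ± 0.28 that was not called (adjusted p = 0.368). *Ly96*, which encodes MD-2, was at 1260, 1089 and 918 after dsHMGB1 and 2340, 2000 and 2322 after LPS. Its libraries did not overlap, and it was lower after dsHMGB1 (−1.03 ± 0.15, adjusted p = 0.000114) while above PBS with both ligands (0.72 and 1.75). *Cd14*, the coreceptor, had no called difference (−0.38 ± 0.20, adjusted p = 0.166). Without PBS replicate 3 both *Tlr4* (adjusted p = 0.0136) and *Cd14* (adjusted p = 0.000223) were called. The adaptors of the endosomal branch differed in sign, with *Ticam1* (TRIF) lower after dsHMGB1 (−0.80 ± 0.10, adjusted p = 0.000252) and *Ticam2* (TRAM) higher (0.54 ± 0.11, adjusted p = 0.00298). Over the 20 genes of the complex, its adaptors and kinases, 6 were lower after dsHMGB1 and 2 higher, and without PBS replicate 3 these counts were 8 and 5.

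Of HMGB1 and 7 other receptors described for it, *Cxcr4*, the receptor of CXCL12 and of HMGB1 in complex with it, was higher after dsHMGB1 than after LPS (1.19 ± 0.10, adjusted p = 1.01e-06), having fallen with both (−3.54 and −4.73 over PBS). *Tlr2* was lower (−0.31 ± 0.06, adjusted p = 0.0405), a call lost when any library of either ligand other than dsHMGB1 replicate 1 was left out (adjusted p 0.0618 to 0.138). *Hmgb1* itself fell with both ligands (−0.48 and −0.35), with a difference of −0.12 ± 0.12 that was not called (adjusted p = 0.739). *Ager*, which encodes the receptor RAGE, stayed near the limit of detection, with a mean of 6.48 after dsHMGB1 and 9.06 after LPS.

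The interferon-stimulated genes, the targets of the endosomal branch, rose with dsHMGB1 and with LPS in all 27 cases tested, with medians over PBS of 5.75 and 6.64. Between the ligands 19 were lower after dsHMGB1 and none was higher (median −0.77, against −2.80 for the cytokines). *Ifnb1*, the type I interferon itself, was at 572, 430 and 417 after dsHMGB1 and 1550, 1974 and 1770 after LPS, from 6 reads in PBS. The libraries of the ligands were well apart (−1.90 ± 0.17, adjusted p = 0.00024). *Isg15*, the ubiquitin-like modifier whose promoter is shown above, was at 48186, 35646 and 38398 after dsHMGB1 and 113006, 112588 and 116779 after LPS (−1.49 ± 0.38, adjusted p = 0.00849). *Rsad2*, the antiviral enzyme viperin, had means of 406220 ± 28800 and 683280 ± 22600 (SD, n = 3) and differed by −0.75 ± 0.18 (adjusted p = 0.0106).

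All 20 genes known from interferon-γ responses rose with both ligands as well, and 11 were lower after dsHMGB1 (median −0.80), or 19 without PBS replicate 3. *Irf8*, a factor of macrophage and dendritic cell lineages, was at 27770, 25771 and 27023 after dsHMGB1 and 97263, 106935 and 100334 after LPS, from 13341 to 14435 in PBS. The groups were far apart and each spread little (−1.92 ± 0.06, adjusted p = 1.12e-08). The chemokine *Cxcl9* differed by −1.67 ± 0.10 (adjusted p = 0.00248) and the guanylate-binding protein *Gbp2* by −1.01 ± 0.15. *Irf1*, an early interferon factor (−0.35 ± 0.13, adjusted p = 0.0577), and *Ciita*, the master regulator of MHC class II (−0.27 ± 0.25, adjusted p = 0.594), had no called difference. Both were called without PBS replicate 3 (adjusted p = 6.16e-05 and 0.0195), and *Irf1* was also called in 4 other alternatives (adjusted p 0.00577 to 0.0425).

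Among genes of antigen presentation, the called differences were in costimulatory molecules and in the class I pathway. *Cd80*, a ligand of CD28, was at 601, 575 and 613 after dsHMGB1 and 3630, 3662 and 3548 after LPS, with a PBS mean of 237. It rose with both ligands and stood lower after dsHMGB1 in every library (−2.60 ± 0.12, adjusted p = 2.52e-08). *Cd40* (−1.48 ± 0.28, adjusted p = 0.00113) and *Cd86* (−1.38 ± 0.09, adjusted p = 4.78e-06) were lower too, and these were the 3 called genes among 15 of MHC class II and costimulation. Of 15 genes of MHC class I processing, 4 were lower, *Nlrc5*, *Tap1*, *B2m* and *H2-D1*, with differences between −0.95 and −0.55, and the call of *B2m* was lost without dsHMGB1 replicate 3. Without PBS replicate 3 the called members were 12 lower and 1 higher for class I and 8 lower and 4 higher for class II and costimulation.

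Of 22 genes of glycolysis and hypoxia, 7 were lower after dsHMGB1 than after LPS and none was higher, or 10 and 4 without PBS replicate 3. A further 2 rises and 6 falls were called with both ligands with no called difference between them. *Pfkfb3*, which makes the activator of phosphofructokinase, differed by −1.36 ± 0.32 (adjusted p = 0.00917), *Pfkp*, the platelet form of that enzyme, by −1.23 ± 0.10, and the hexokinase *Hk2* by −1.05 ± 0.15. *Hif1a*, the hypoxia factor, was not called (−0.60 ± 0.33, adjusted p = 0.264), but was without PBS replicate 3 (adjusted p = 2.5e-05) and with only the compared groups in the fit (0.00178).

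The called NRF2 and glutathione genes were mainly higher after dsHMGB1 than after LPS. NRF2 is the factor that oxidants and electrophiles free from KEAP1, and its targets make glutathione, reduce thioredoxin and break down heme. Of 25 genes, 13 were higher after dsHMGB1 than after LPS and 1 was lower, with a median of 0.59. Among the 13 were 4 larger shared rises, 2 genes with opposite calls, 3 falls called with LPS alone and 1 smaller shared fall. The rest had no call over PBS with either ligand. Over PBS 10 of them rose and 4 fell with dsHMGB1 (median 0.28), whereas 8 rose and 11 fell with LPS (median −0.31). The count of 13 dropped to 7 without dsHMGB1 replicate 2 and to 8 without LPS replicate 1.

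*Srxn1* (ENSMUSG00000032802, chr2:152105516-152111376, + strand) moved to opposite sides of PBS. It was at 6840, 6325 and 6190 in the PBS libraries, 11801, 11799 and 12561 after dsHMGB1 and 2814, 2727 and 2898 after LPS. All dsHMGB1 libraries lay above all PBS libraries and all LPS libraries below them, with log2 changes over PBS of 0.90 and −1.20. The difference was 2.10 ± 0.07 (adjusted p = 1.33e-08), and the opposite calls held in every alternative run except those that asked for a set size of change over PBS.

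*Gclm*, the regulatory subunit of the enzyme that limits glutathione synthesis, was at 2626, 2458 and 1835 in PBS, 3851, 4075 and 3964 after dsHMGB1 and 1192, 1072 and 1215 after LPS. It also rose with one ligand and fell with the other (0.78 and −0.99 over PBS, difference 1.77 ± 0.12, adjusted p = 7.89e-07). *Gclc*, the catalytic subunit, was higher after dsHMGB1 (1.04 ± 0.36, adjusted p = 0.0388) with no call over PBS for either ligand, and lost this call when any library of either ligand was left out (adjusted p 0.0664 to 0.119). *Hmox1*, heme oxygenase 1, was at 14647, 13523 and 16851 in PBS, 16544, 14470 and 15853 after dsHMGB1 and 5394, 5045 and 5210 after LPS. After dsHMGB1 it overlapped PBS, and after LPS it lay far below PBS in every library (1.58 ± 0.09, adjusted p = 3.68e-08). *Slc48a1*, which carries heme out of the phagolysosome, had the same order (1.52 ± 0.06, adjusted p = 3.54e-08).

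Other members of the group moved in the same direction with both ligands and still stood higher after dsHMGB1. *Txnrd1*, thioredoxin reductase, was at 37576, 43014 and 41407 after dsHMGB1 and 25449, 26486 and 26364 after LPS, above the 4462 to 9497 of PBS (0.64 ± 0.22, adjusted p = 0.0325). The ligand groups did not overlap, but the call was lost when any of these 6 libraries was left out (adjusted p 0.0613 to 0.106). *Slc7a11*, the cystine transporter, rose more with dsHMGB1 (5.02 and 4.39 over PBS, difference 0.63 ± 0.17, adjusted p = 0.00985, or 0.0572 without dsHMGB1 replicate 2), while *Slc3a2*, its partner chain, was the 1 member that was lower (−0.57 ± 0.14, adjusted p = 0.00523). *Osgin1*, an oxidative stress-induced growth inhibitor, fell with both and fell less with dsHMGB1 (−1.05 and −3.15, difference 2.10 ± 0.14). *Nfe2l2*, which encodes NRF2, rose with both ligands (1.02 and 0.57, difference 0.45 ± 0.15, adjusted p = 0.0322, or 0.0562 to 0.11 when any library of either ligand was left out), and its inhibitor *Keap1* did too with no called difference (0.08 ± 0.08, adjusted p = 0.275). The glutathione peroxidases *Gpx1* and *Gpx4* fell with both and were not called different.

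Enzymes of sterol synthesis were higher after dsHMGB1 in 10 of 25 cases and lower in none (median 0.50), or 18 without PBS replicate 3. Over PBS 12 rose and 3 fell with dsHMGB1, and 6 rose and 10 fell with LPS. *Lss*, which closes the sterol rings, was at 1013, 1192 and 1195 after dsHMGB1 and 456, 477 and 466 after LPS, with PBS at 1422, 1411 and 945. After dsHMGB1 it overlapped PBS only through PBS replicate 3, and after LPS it did not overlap PBS (1.28 ± 0.16, adjusted p = 6.41e-05). When that PBS library was left out, and with upper-quartile normalization, *Lss* was called as a fall with both ligands, smaller with dsHMGB1. *Sqle*, the epoxidase before it, rose with dsHMGB1 and fell with LPS (0.35 and −0.59 over PBS, difference 0.94 ± 0.08, adjusted p = 5.84e-06). *Stard4*, a carrier of cholesterol, did the same (0.42 and −0.61, difference 1.04 ± 0.10), and *Mvd* of the mevalonate steps was higher by 1.20 ± 0.18. *Srebf2*, the factor that drives these genes, rose alike with both ligands (1.44 and 1.40, difference 0.03 ± 0.22, adjusted p = 0.818).

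Among 33 genes of lipid uptake, storage and efflux, 9 were higher after dsHMGB1 and 7 lower, or 11 and 13 without PBS replicate 3. *Nr1h3* (chr2:91184061-91202834, − strand), which encodes the oxysterol receptor LXRα, was at 2966, 2782 and 4336 in PBS, 8162, 7251 and 8010 after dsHMGB1 and 3361, 3097 and 3335 after LPS. All dsHMGB1 libraries stood above the rest. The LPS libraries lay within the PBS range, above PBS replicates 1 and 2 and below replicate 3 (1.22 and −0.04 over PBS, difference 1.26 ± 0.15, adjusted p = 6.01e-06). Of the cholesterol exporters that LXRα is known to drive, *Abcg1* was higher after dsHMGB1 (0.80 ± 0.16, adjusted p = 0.00159), with 20225, 21217 and 21290 against 11177, 12602 and 12353 after LPS. *Abca1* was not called (0.99 ± 0.49, adjusted p = 0.157, or 4.76e-05 without PBS replicate 3). *Soat1*, which esterifies cholesterol for storage (0.86 ± 0.08), and *Nceh1*, which frees it (0.78 ± 0.11), fell with both ligands and fell less with dsHMGB1. The lipoprotein lipase *Lpl* (0.57 ± 0.16, adjusted p = 0.00281) and the HDL receptor *Scarb1* (0.63 ± 0.13, adjusted p = 0.00198) were higher after dsHMGB1, and *Pf4*, *Cd68*, *Scarb2*, *Scara3* and *Colec12* were not called, with differences between −0.52 and 0.84. When PBS replicate 3 was left out, *Pf4* (adjusted p = 4.29e-05) was called higher and *Cd68* (adjusted p = 0.0173) lower, and *Pf4* was called with only the compared groups in the fit as well (0.000314). *Plin2*, the coat protein of lipid droplets, fell more with dsHMGB1 (−1.57 and −0.89, difference −0.67 ± 0.10, adjusted p = 0.00019).

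*Marco* (ENSMUSG00000026390, chr1:120474538-120505024, − strand), a scavenger receptor for bacteria and particles, had the largest difference among the 85 shared rises that were larger after dsHMGB1. It was at 24.6, 26.5 and 30.5 in PBS, 3260, 3447 and 3487 after dsHMGB1 and 493, 415 and 375 after LPS. Both ligands raised it in every library, and the dsHMGB1 libraries stood above all LPS libraries (6.98 and 3.99 over PBS, difference 2.99 ± 0.32, adjusted p = 1.49e-05). The scavenger receptors *Msr1* (−0.75 ± 0.06, adjusted p = 4.39e-05) and *Olr1* (−1.0 ± 0.09, adjusted p = 0.00662) rose with both and were lower after dsHMGB1, and *Cd36* had no call in any contrast (difference −0.01 ± 0.27, adjusted p = 0.93).

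The activating myeloid receptor *Cd300e* was at 226, 319 and 289 after dsHMGB1 and 51.7, 37.4 and 48.5 after LPS, from 9.37 to 24.6 in PBS (2.60 ± 0.28, adjusted p = 3.87e-05). Its relative *Cd300lb* fell with both ligands and was also higher after dsHMGB1 than after LPS, at 2805, 3261 and 3496 against 343, 266 and 318, with PBS at 23538, 23247 and 9372. Both receptors were therefore higher after dsHMGB1, one by a larger rise and the other by a smaller fall (3.37 ± 0.29 for *Cd300lb*, adjusted p = 4.27e-06). Other shared rises that were larger after dsHMGB1 were those of *Osbpl3*, an oxysterol-binding protein (1.34 ± 0.15), *Ppfibp2*, a liprin (1.31 ± 0.12), and *Siglece*, an inhibitory lectin (1.73 ± 0.59, adjusted p = 0.0277), whose call was lost when any library of either ligand other than LPS replicate 1 was left out (adjusted p 0.057 to 0.118). The matrix protease *Mmp9* (1.18 ± 0.11, adjusted p = 9.9e-06), the urokinase *Plau* (0.94 ± 0.11) and the fatty acid receptor *Gpr84* (1.08 ± 0.13) were in this class as well. Without LPS replicate 2 the class held 53 genes in place of 85.

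Of the 76 rises called with dsHMGB1 alone, *Tgfbi* (chr13:56609523-56639562, + strand), a matrix protein induced by TGF-β, was at 7220, 7573 and 7723 after dsHMGB1. It was at 2547, 2430 and 2979 in PBS and 2466, 2566 and 3063 after LPS, groups that overlapped each other and lay far below dsHMGB1 (1.48 ± 0.13, adjusted p = 1.42e-06). *Slc13a3*, a carrier of dicarboxylates, was at 132, 164 and 134 after dsHMGB1 and 22.0, 68.7 and 25 after LPS (1.90 ± 0.43, adjusted p = 0.00478). *Pik3cg*, the PI3K catalytic subunit downstream of G protein-coupled receptors (1.6 ± 0.28), *Pag1*, an adaptor of the kinase CSK (1.5 ± 0.32), and *March1*, the ubiquitin ligase of MHC class II (1.34 ± 0.23), stood below PBS after LPS without a call there. In these 3 genes PBS replicate 3 was at less than the other PBS libraries, at 1115, 253 and 1346, and without it all 3 were called as falls with LPS.

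The Ras exchange factor *Rasgrf1* was counted in 77 reads after dsHMGB1, 6 after LPS and 1 in PBS, a ratio to LPS of 7.41 (counting interval 3.25 to 20.8). Its level after LPS was 11.3-fold that in PBS (counting interval 1.37 to 518), with no call in the fit reported. It was called as a rise with both ligands under DESeq2's Wald test and without LPS replicate 2. Its call against LPS (adjusted p = 0.0193) was lost without dsHMGB1 replicate 2 or 3 or LPS replicate 1 or 2. *Madcam1*, an adhesion molecule, was counted in 70 and 18 reads and was not called (1.27 ± 0.97, adjusted p = 0.33), and *Lrrc17*, a secreted leucine-rich repeat protein, fell from 149 reads in PBS to 2 and 8 with no called difference.

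Of the 81 falls called with dsHMGB1 alone, *Irs2*, the adaptor of the insulin and IL-4 receptors, was at 965, 957 and 453 in PBS, 173, 231 and 203 after dsHMGB1 and 677, 1004 and 1050 after LPS. All dsHMGB1 libraries were below the rest, and the LPS libraries overlapped PBS (−2.17 ± 0.26, adjusted p = 7.31e-05). *Rpl23a*, a ribosomal protein gene, was at 494, 384 and 377 after dsHMGB1 and 1328, 1468 and 1500 after LPS (−1.78 ± 0.21, adjusted p = 1.91e-05). It belongs to a family with many near-identical pseudogene copies, between which reads can be split, and its value is uncertain for that reason. *Fabp7*, a fatty acid-binding protein (−2.19 ± 0.35), the hypoxia genes *Hilpda* (−1.47 ± 0.31) and *Ndrg1* (−1.29 ± 0.12), and *M1ap*, a meiosis gene (−1.93 ± 0.32), had the same order. When PBS replicate 3 was left out, *Fabp7* and *Hilpda* were also called as rises with LPS. *Hilpda* was not in this class with only the compared groups in the fit. Without PBS replicate 3 the class held 205 genes, and without dsHMGB1 replicate 2 or 3 it held 44 or 45. The metallothionein *Mt1* was at 8783 in PBS replicate 3 against 1880 and 1538 in the others, and its call between the ligands (−1.73 ± 0.48, adjusted p = 0.0177) was lost without dsHMGB1 replicate 2 or 3.

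Falls that both ligands caused and that were larger after dsHMGB1 included that of *P2ry6* (chr7:100937630-100974649, − strand), the receptor of extracellular UDP. It was at 6971, 6299 and 6305 in PBS, 1650, 1437 and 1556 after dsHMGB1 and 4259, 4158 and 4386 after LPS. The groups followed in 3 separate steps (−2.08 and −0.61 over PBS, difference −1.46 ± 0.07, adjusted p = 1.49e-07). *Rell1*, a relative of the TNF receptor RELT (−1.25 ± 0.09), and *Frat2*, an inhibitor of GSK-3 (−1.86 ± 0.38), showed the same order.

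The genes that LPS raised and dsHMGB1 lowered included *Hmga2* (chr10:120361275-120476469, − strand), a DNA-binding protein of the high mobility group A family that shares no HMG box with HMGB1. It was at 2085, 2135 and 1332 in PBS, 793, 1029 and 873 after dsHMGB1 and 3503, 3629 and 3204 after LPS. The LPS libraries were all above PBS and the dsHMGB1 libraries all below it (0.89 and −1.04 over PBS, difference −1.94 ± 0.17, adjusted p = 5.56e-06). The transcription factor *Ikzf4* was counted in 67 reads after LPS, 13 in PBS and 0 after dsHMGB1, and was at least 38.7-fold higher after LPS than after dsHMGB1. *Slc9a3r1*, a scaffold of membrane transporters, and *Casz1*, a zinc finger factor, changed little with dsHMGB1 (−0.27 and −0.21 over PBS), and in 11 and 12 of the alternatives they were called for LPS alone. Leaving out any library of either ligand was among these.

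In the other direction, the genes that dsHMGB1 raised and LPS lowered included *B430306N03Rik*, with 4427, 4468 and 4672 after dsHMGB1 and 725, 740 and 581 after LPS (2.73 ± 0.13, adjusted p = 3.68e-08). Its PBS libraries, at 3092, 2990 and 2311, lay between the ligands. *Bcl2*, the inhibitor of apoptosis (2.04 ± 0.29), *Ksr1*, a scaffold of the MAP kinase cascade (1.69 ± 0.18), *Slc30a1*, the zinc exporter (1.39 ± 0.08), and *S1pr2*, a receptor of sphingosine 1-phosphate (1.19 ± 0.05), were in this class. These 4 genes were chosen for the text after their values had been seen.

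**Figure D4:**
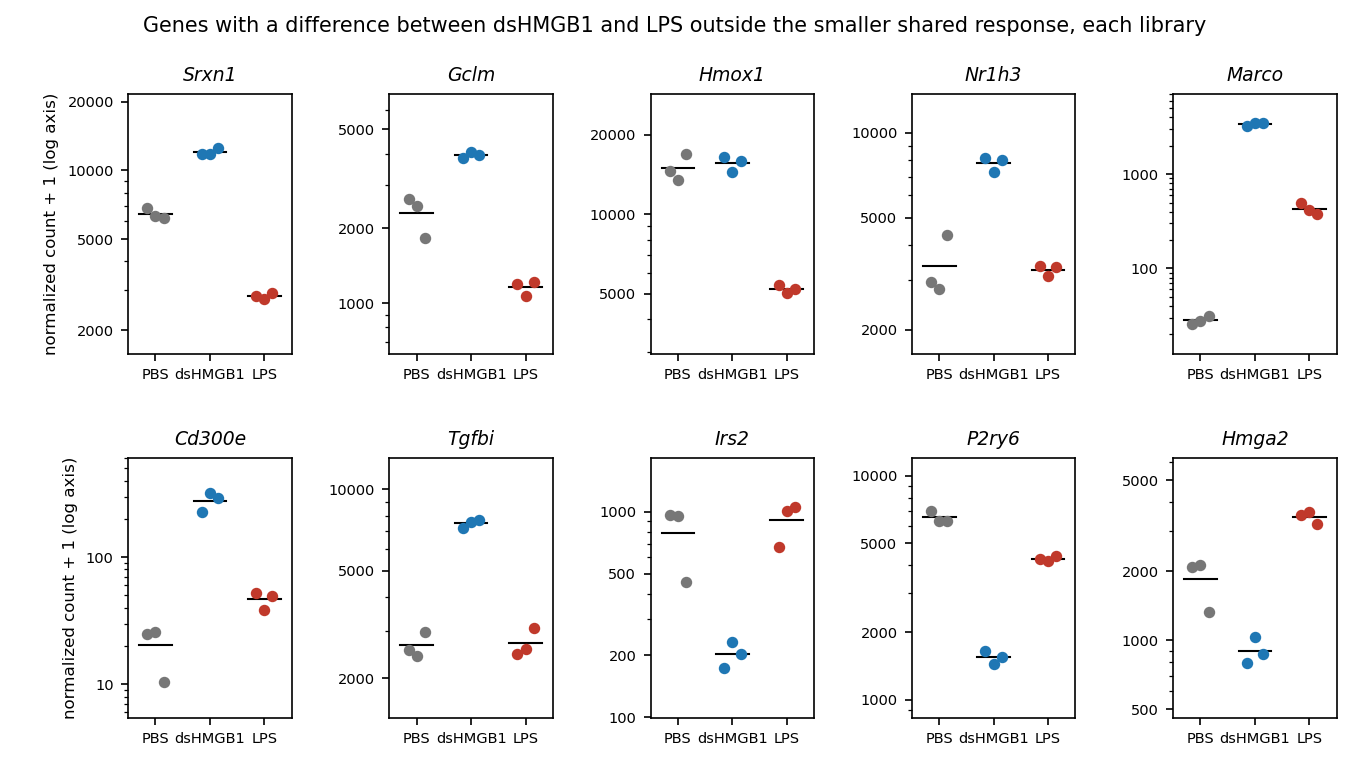
Normalized counts plus 1, on a log axis, of 10 genes in each PBS, dsHMGB1 and LPS library, with a line at the group's mean. *Srxn1* and *Gclm* stand above PBS after dsHMGB1 and below it after LPS, *Hmga2* stands the other way round, *Nr1h3* and *Tgfbi* stand above PBS after dsHMGB1 alone, and *Irs2* stands below PBS after dsHMGB1 alone.

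Among the 331 rises called with LPS alone was that of *Hamp* (ENSMUSG00000050440, chr7:30942368-30944032, − strand), which encodes hepcidin, the hormone that closes the iron exporter ferroportin. It was counted in 630, 492 and 556 normalized counts after LPS, and in 1.78, 2.93 and 3.36 after dsHMGB1 and 0.647, 1.26 and 2.34 in PBS. The level after LPS was 207-fold that after dsHMGB1 (counting interval 112 to 432, adjusted p = 3.57e-08), and the dsHMGB1 and PBS libraries overlapped. *Slc40a1*, which encodes ferroportin, fell with both ligands, to 706, 979 and 867 after dsHMGB1 and 172, 161 and 131 after LPS from 6715, 6984 and 3560. It fell less with dsHMGB1 (2.46 ± 0.24, adjusted p = 7.86e-06). *Tfrc*, the transferrin receptor, was higher after dsHMGB1 than after LPS (0.71 ± 0.26, adjusted p = 0.0418, or 0.0521 to 0.159 when any library of either ligand was left out). The ferritin chains *Fth1* and *Ftl1* had no called difference in the fit reported. Both were called without PBS replicate 3 (adjusted p = 0.000818 and 0.000411) and with only the compared groups in the fit (0.00698 and 0.00519). Of 24 secreted defence and iron proteins 5 were higher after dsHMGB1 and 7 lower, and the 5 became 3 when any library of either ligand was left out and 7 without PBS replicate 3.

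*Tyro3*, a receptor for apoptotic cells, was at 48.0, 55.8 and 47.1 after dsHMGB1 and 719, 734 and 844 after LPS, with PBS at 35.6, 38.5 and 53.9. In the fit reported it was called as a rise with LPS alone (−3.92 ± 0.17, adjusted p = 1.12e-08). When PBS replicate 3 was left out it was called as a rise with both ligands, smaller with dsHMGB1. Its relative *Mertk* rose with LPS (2.01 over PBS), had no call for dsHMGB1 (0.80), and was lower after dsHMGB1 (−1.21 ± 0.34, adjusted p = 0.0245, lost without dsHMGB1 replicate 1 or 3 or LPS replicate 2 or 3). *Axl*, the other receptor of this family, rose with both (1.88 and 2.17) with no called difference in the fit reported. It was called without PBS replicate 3 (adjusted p = 0.000756) and with only the compared groups in the fit (0.0214). *Ccr7*, which guides cells to lymph nodes, was counted in 32 reads after LPS and 4 after dsHMGB1, a ratio of 13.9 (counting interval 4.91 to 53.9), and its call (adjusted p = 0.013) was lost without LPS replicate 2. The dendritic cell markers were lower after dsHMGB1 too, as given above.

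The genes that fell less with dsHMGB1 included regulators of the resting macrophage. *Tfeb* (chr17:47737030-47792419, + strand), a regulator of lysosome genes, was at 6216, 5831 and 10900 in PBS, 2750, 2256 and 2546 after dsHMGB1 and 591, 475 and 503 after LPS. The 3 groups did not overlap (−1.6 and −3.87 over PBS, difference 2.27 ± 0.21, adjusted p = 1.36e-06). *Pparg*, a fatty acid-sensing nuclear receptor, fell in the same order (−2.54 and −3.60, difference 1.06 ± 0.13, adjusted p = 1.27e-05). The cannabinoid receptor *Cnr2* dropped to 47.2, 89.5 and 68.1 after dsHMGB1 and 10.3, 13.5 and 17.6 after LPS from 3301, 3184 and 1864 (2.32 ± 0.37, adjusted p = 0.000184). *Csf1r*, the receptor of the growth factor on which these cells depend, was higher after dsHMGB1 (0.68 ± 0.13, adjusted p = 0.00162), having fallen with LPS (−0.44) with no call for dsHMGB1 (0.24).

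Part of the genes that were higher after dsHMGB1 than after LPS were also low in the frHMGB1 libraries. Of the 1601 genes, 39 were called lower after frHMGB1 than after PBS, and all 39 also lay below PBS after LPS, whereas 55 of all 13025 genes were called lower after frHMGB1. They included 6 of the 13 mitochondrially encoded genes tested, and the 7 others had log2 fold changes, dsHMGB1 over LPS in edgeR, of −0.03 to 0.52 and no call. In PBS the 6 had means of 38.5 to 1581 normalized counts, which are not per length, and the 7 others of 12460 to 121200. Why the 6 were counted so much lower was not tested, and their values, those of *mt-Co3* included, are uncertain. *mt-Co3*, a subunit of cytochrome c oxidase, was at 1336, 877 and 534 after dsHMGB1, 65.9, 43.3 and 42.6 after LPS and a mean of 37.3 after frHMGB1, with 374 to 547 in PBS. The LPS and frHMGB1 libraries were thus low together, and those of PBS and dsHMGB1 high. The 3 libraries given LPS together with IFNγ for 24 h, which also received LPS, were high, at 844, 864 and 971. Their IFNγ dose was 20 ng/mL, and their LPS dose is 1 µg/mL in the sample labels and 100 ng/mL in the protocol text. *Acot10*, an acyl-CoA thioesterase, *Rbm8a2* and *Gm3839* showed the same grouping, with means of 174, 83.0 and 129 after LPS with IFNγ, and each has a near-identical copy elsewhere with which it can share reads, so their values are uncertain. Processed pseudogenes took 0.54 to 0.56% of the counts after frHMGB1 and 0.481 to 0.487% after LPS. In the libraries of the other groups their share was 0.684 to 1.49%. Whether this grouping comes from the treatments or from the libraries was not tested. Without the genes called lower after frHMGB1, 1562 genes were higher and 1639 lower after dsHMGB1 than after LPS, and 44 had opposite calls. *Srxn1* was not among them and stood at a mean of 7217 after frHMGB1.

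**Figure D5:**
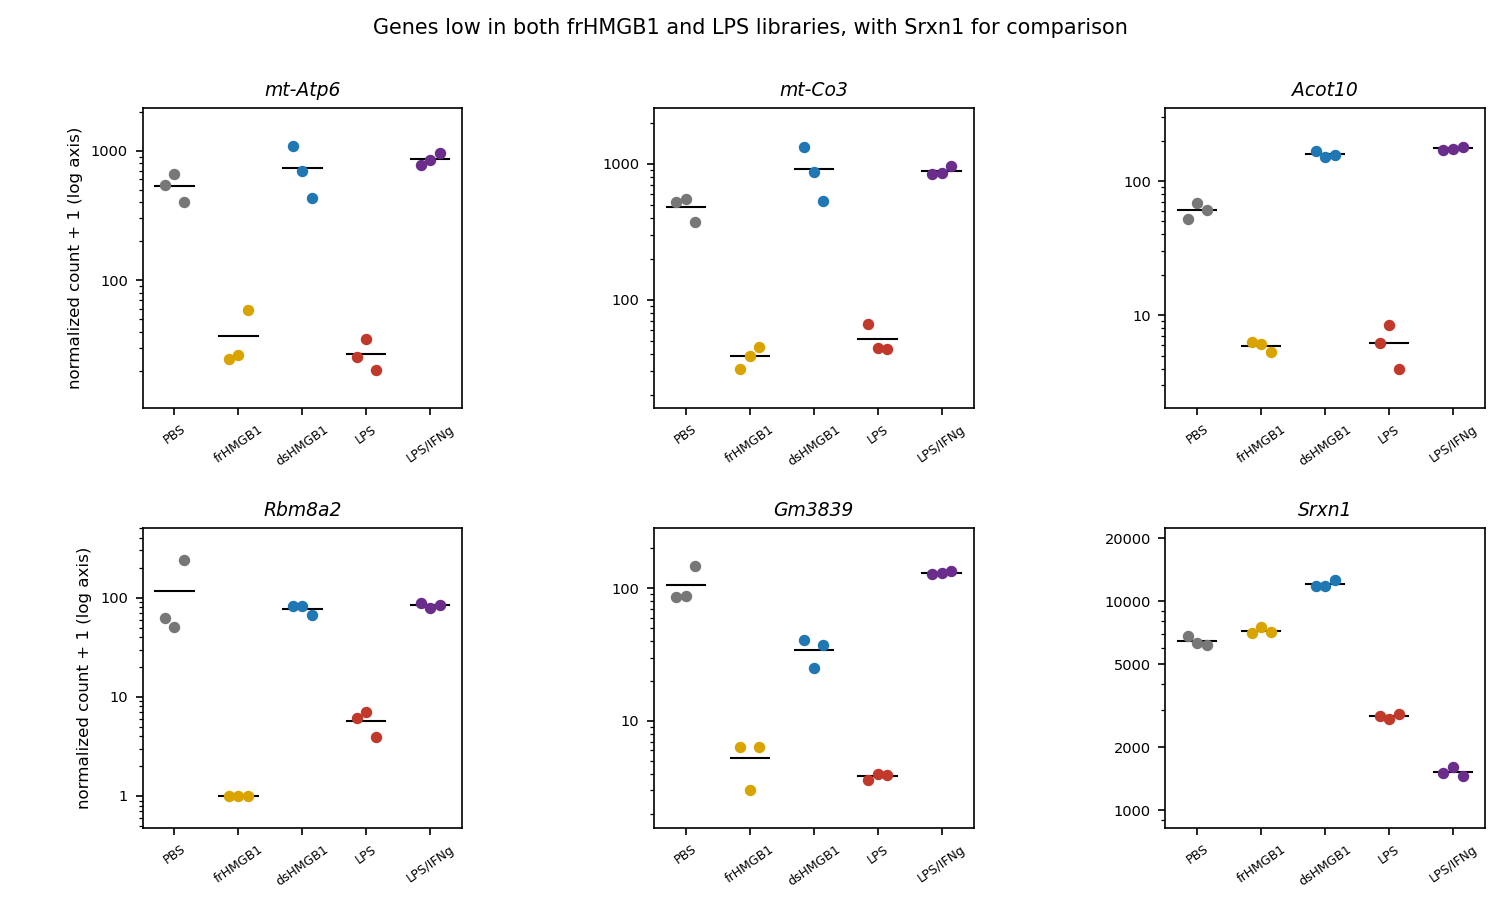
Normalized counts plus 1, on a log axis, of 6 genes in each PBS, frHMGB1, dsHMGB1, LPS and LPS/IFNg (LPS with IFNγ) library, with a line at the group's mean. *mt-Atp6*, *mt-Co3*, *Acot10*, *Rbm8a2* and *Gm3839* are low after frHMGB1 and LPS and not after LPS with IFNγ, and *Srxn1* is low after LPS, with or without IFNγ, and not after frHMGB1.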

How the data were processed

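RNA-seq had been run on 15 BMDM libraries in 5 groups of 3. The authors deposited a table of raw read counts per Ensembl gene, and the notes with the samples name CASAVA, STAR, DESeq2 and GRCm38 without versions. Whether counting used strand is not given in the sources used here. GENCODE M21 held 51661 of the 51763 identifiers and gave symbols, gene types and coordinates. The labels give 10 days of culture and the methods 8 to 9. The dsHMGB1 and LPS groups and the PBS controls were taken from the labels. All 15 libraries were fitted together with edgeR 4.0.16 in R 4.3.3 (TMM, filterByExpr, quasi-likelihood F test, Benjamini-Hochberg adjustment over 16919 genes, threshold 0.05), so that the LPS/IFNγ and frHMGB1 libraries share the estimate of the spread. Normalized counts, log2 fold changes and standard errors came from DESeq2 1.42.0. Depth was 45497806 to 79899533 counts in the 9 libraries of these groups, so that counting error was small for all but genes with few reads. Some of these are given with a counting interval (exact, 95%) or a floor of 3 counts. Others, such as *Lrrc17*, *Madcam1* and *Ager*, are given with neither.

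The members, gene lists and classes were chosen with earlier results of these data known. Genes were named by rule (genes in the study's text, up to 5 of the largest differences per class among genes averaging 100 or more normalized counts in 1 group and 3 per class called with LPS alone, and per list the largest differences and the highest level). Those taken per class also had to have dsHMGB1 and LPS libraries that did not overlap. Other list members and genes of small classes were chosen for naming once their values had been seen. Scripts were tested on simulated data. Promoters came from RefSeq, with 97 of the 126 genes named by rule matched. Alternatives were other normalizations, filters and tests, a fold threshold, subsets of groups and genes, a replicate block and leaving out each library.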

Additional observations from a re-analysis of the deposited data

How the results depend on the processing

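The direction of every called difference named in the text held in all alternatives run. Of the protein-coding genes called in the fit reported, none was called in the other direction in any alternative, whereas the number of calls moved. A fit of the dsHMGB1 and LPS libraries alone called 2596 genes higher and 2959 lower, and a test against a 2-fold change called 134 and 217. Leaving out 1 library gave 1069 to 2961 higher and 1211 to 3705 lower, the upper ends without PBS replicate 3. The cause of the moves was not tested.

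Among the classes, the smaller shared rises numbered 129 in the test against a 2-fold change and 308 by a log2 cut-off of 2 with no test, and 841 to 2524 with 1 library left out. The smaller shared falls numbered 60, 149 and 688 to 1942 in the same order, the larger shared rises 1, 17 and 53 to 207, and the larger shared falls 0, 12 and 20 to 139. The rises in dsHMGB1 alone numbered 6, 23 and 54 to 141, the falls in dsHMGB1 alone 5, 42 and 44 to 205, and the opposite changes 2, 1 and 32 to 137. With each contrast fitted separately on only the groups it compares, there were 128 larger shared rises, 48 falls in dsHMGB1 alone and 8 opposite changes. With no filter on low counts there were 52 falls in dsHMGB1 alone and 25 opposite changes, with DESeq2's Wald test 71 opposite changes, and with upper-quartile normalization 47 larger shared falls. The alternative without genes called lower after frHMGB1 was chosen after seeing the data.

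Of the called differences named in the text, those of *Relb*, *Tlr2* and *B2m* were lost with upper-quartile normalization, those of *Relb*, *Tlr2* and *Nfe2l2* with no filter, that of *Relb* with a filter of 1 CPM and with protein-coding genes alone, and those of *Relb*, *Tlr2*, *Gclc* and *Col3a1* with the replicate block.

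The replicate numbers of the labels were not shown to pair the samples. Same-numbered dsHMGB1 and LPS libraries deviated from their group means with correlations of 0.0831, 0.0947 and 0.0524, none over 0.1, although each library correlated best with its own number. The fit with the replicate block called 1481 genes higher and 1539 lower.

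The genes whose sign changed had no called difference in the fit reported, and signs were compared on edgeR's log2 fold changes, which for *Cd36* and *Cxcl3* lie on the other side of 0 from the DESeq2 values printed above. These were 0.015 for *Scarb2*, 0.047 for *Cd36*, 0.007 for *Gpnmb*, 0.004 for *Ctsb*, 0.049 for *Cxcl3*, −0.042 for *Ctss* and −0.001 for *Colec12*. Under RLE normalization the log2 fold changes became −0.039 for *Scarb2*, −0.006 for *Cd36*, −0.046 for *Gpnmb*, −0.049 for *Ctsb* and −0.004 for *Cxcl3*, and under DESeq2's Wald test −0.038, −0.006, −0.046, −0.049 and −0.004. With no filter *Scarb2* was at −0.007, *Gpnmb* at −0.015 and *Ctsb* at −0.019. *Ctss* was at 0.016 under upper-quartile normalization, and *Colec12* at 0.055 there, 0.004 with a filter of 1 CPM, 0.030 with protein-coding genes alone and 0.003 with the replicate block. With 1 library left out, the log2 fold change ran from −0.034 to 0.028 for *Scarb2*, −0.021 to 0.072 for *Cd36*, −0.046 to 0.019 for *Gpnmb*, −0.041 to 0.030 for *Ctsb*, −0.054 to 0.032 for *Colec12*, −0.149 to 0.004 for *Ctss*, −0.051 to 0.129 for *Cxcl3* and −0.042 to 0.138 for *Ptges*. *Ager* and *Lrrc17*, which have few reads, ran from −1.012 to 0.685 and −4.963 to 2.484, the upper ends without LPS replicate 2.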

Other observations

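Cell cycle genes held called differences in both directions, at shares to be read against the 12.3% higher and 12.6% lower of all protein-coding genes. Of 26 S phase genes, 6 were lower after dsHMGB1 than after LPS and 5 higher (7 and 7 without PBS replicate 3). The replication clamp *Pcna* (−1.31 ± 0.10, edgeR adjusted p = 4.09e-07), the thymidylate synthase *Tyms* (−1.42 ± 0.15) and the cyclin *Ccne1* (−1.41 ± 0.19) were lower, and *Pcna* and *Tyms* were called over PBS for LPS alone. The ribonucleotide reductase *Rrm1* (0.62 ± 0.09) and the helicase subunit *Mcm3* (0.68 ± 0.12) fell with both ligands and fell less with dsHMGB1. Of 26 genes of G2 and mitosis, 2 were lower and 4 higher, which is near those shares. The spindle protein *Tpx2* rose less with dsHMGB1 (1.51 and 2.89 over PBS, difference −1.38 ± 0.13, adjusted p = 2.76e-05), and the kinetochore protein *Ndc80* fell less (−1.64 and −2.90, difference 1.26 ± 0.31, adjusted p = 0.00189). The higher members numbered 2 without LPS replicate 2 and 6 without PBS replicate 3. *Mki67* rose with both (3.25 and 3.81) with no called difference (−0.56 ± 0.21, adjusted p = 0.0932), and was called without PBS replicate 3 (adjusted p = 0.000482).

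Other groups held called members in both directions, again to be read against the 12.3% higher and 12.6% lower of all protein-coding genes. Among 25 lysosome genes 4 were higher after dsHMGB1 and 1 lower (6 and 6 without PBS replicate 3), and beside *Tfeb* its relative *Tfe3* was higher (0.48 ± 0.08, adjusted p = 0.00125), while the protease *Ctsl* was lower (−0.69 ± 0.15, adjusted p = 0.00148). Among 31 genes of fatty acid oxidation and its regulators 5 were higher and 3 lower, which is near those shares. These counts ran from 2 to 4 and from 3 to 4 when a library of either ligand was left out, and were 10 and 6 without PBS replicate 3. The coactivator *Ppargc1b* (−0.93 ± 0.17, adjusted p = 0.00217) and the dehydrogenase *Acadl* (−0.58 ± 0.13, adjusted p = 0.00352) were lower. Of 14 genes known from alternative activation 5 were lower and 3 higher. The IL-4 receptor chain *Il4ra* (−1.11 ± 0.06, adjusted p = 1.3e-06) and the transglutaminase *Tgm2* (−0.80 ± 0.08) rose less with dsHMGB1, and the inhibitory receptor *Cd200r1* fell with LPS (−1.53 over PBS) with no call for dsHMGB1 (difference 1.27 ± 0.25, adjusted p = 0.00162). Of 20 tissue macrophage and efferocytosis genes 4 were lower and 2 higher, or 7 and 5 without PBS replicate 3, with *Spp1*, osteopontin, lower by −0.78 ± 0.08 (adjusted p = 3.23e-05).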
